A study of Mus musculus with 10 samples.

Results

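The output genes of the MAPK/ERK pathway were described in 10 subcutaneous mouse melanomas. The genes were Dusp4, Dusp6, Spry2, Spry4, Etv4, Etv5, Phlda1, Spred1, Ccnd1 and Egr1, chosen by name as transcripts known to follow ERK activity. All 10 are among the 29890 genes listed and all 10 are among the 15276 tested, those that averaged 1 TPM or more. TPM is a transcript abundance scaled for length and to a fixed sum in each library, so no read depth can be recovered and that of each tumor is unknown. Of the tumors, 5 came from B2905-M4 cells that overexpressed Adamts7, a protease secreted into the matrix, and 5 from the same line overexpressing a vector control (Vec). B2905 is known as a line from an ultraviolet-induced melanoma of a C57BL/6 mouse carrying an Hgf transgene, and HGF is the ligand of the receptor tyrosine kinase Met. The hosts were female C57BL/6 mice aged 7 to 8 weeks at injection, and no tumor received immunotherapy. Harvest took 2 Adamts7 tumors on day 35, 3 Adamts7 and 3 Vec tumors on day 45 and 2 Vec tumors on day 50, and no label ties a day to a tumor. All tumors derive from 1 line, and the sources used here do not name the promoter of the overexpression construct. The RNA is from whole tumors, so fewer cells of a type and less RNA per cell cannot be told apart.

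ERK is the last kinase of a cascade in which receptor tyrosine kinases load RAS with GTP, RAS recruits RAF, RAF phosphorylates MEK and MEK phosphorylates ERK. Active ERK induces a small set of transcripts, and many of them encode brakes on the same cascade, so their levels are widely read as a measure of pathway output. In melanoma the cascade is a main driver of proliferation and is often held active by mutations of BRAF or NRAS. The brakes here are the phosphatases Dusp4 and Dusp6 and the adaptor inhibitors Spry2, Spry4 and Spred1. The effectors here are the ETS transcription factors Etv4 and Etv5, the zinc finger factor Egr1, the pleckstrin homology-like protein Phlda1 and cyclin D1, encoded by Ccnd1.

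Of the 10 genes, 4 had entries in the RefSeq promoter table, namely Dusp6, Spry2, Etv5 and Spred1, with 5 windows in all since Etv5 has a pair. The 250 bases before the gene start are shown for a phosphatase, an adaptor inhibitor and a transcription factor that shared their highest tumor and their 2 lowest tumors, as described below. The build is GRCm38.p6, and the windows are at chr10:99262981-99263230 on the plus strand for Dusp6, at chr14:105896820-105897069 on the minus strand for Spry2 and at chr16:22439571-22439820 on the minus strand for Etv5. Each is written 5′ to 3′, and capitals mark GGAA or its reverse complement TTCC, the core that ETS factors such as Etv4 and Etv5 bind.
Dusp6: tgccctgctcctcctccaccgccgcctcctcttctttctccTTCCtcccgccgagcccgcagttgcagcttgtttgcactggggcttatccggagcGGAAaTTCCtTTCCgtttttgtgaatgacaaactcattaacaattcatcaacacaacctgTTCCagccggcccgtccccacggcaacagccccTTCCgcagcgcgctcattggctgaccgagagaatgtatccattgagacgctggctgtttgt
Spry2: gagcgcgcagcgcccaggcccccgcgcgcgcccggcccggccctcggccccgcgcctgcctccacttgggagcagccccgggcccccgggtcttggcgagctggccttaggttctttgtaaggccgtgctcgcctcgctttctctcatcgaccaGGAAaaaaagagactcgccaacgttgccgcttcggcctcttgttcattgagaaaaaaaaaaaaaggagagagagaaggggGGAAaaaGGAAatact
Etv5: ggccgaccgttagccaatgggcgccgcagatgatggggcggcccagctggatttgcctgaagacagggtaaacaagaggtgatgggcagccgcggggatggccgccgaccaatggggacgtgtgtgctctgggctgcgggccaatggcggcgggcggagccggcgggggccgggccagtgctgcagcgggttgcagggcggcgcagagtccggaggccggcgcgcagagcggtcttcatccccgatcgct
The core occurred 6 times in the Dusp6 window, 3 times in the Spry2 window and 0 times in the Etv5 window shown, and 4 times each in the other Etv5 window and the Spred1 window, against a median of 3 over all 32851 windows of the table, with quartiles of 2 and 4. At least 1 core was found in 93.4% of all windows, and this core was chosen after the longer motifs had been searched. None of the 5 windows of these genes held the ETS motif CCGGAAGT, present on either strand in 3.89% of all windows of 300 bases, which run on for 50 bases past the gene start. None held the AP-1 motif TGANTCA (7.81% of all windows), the cAMP response element TGACGTCA (1.79%), the EGR motif GCGNGGGCG (5.55%), the E-box CACGTG (7.15%) or a CArG box (1.63%). These matches describe the letters of each window only.

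A few tumors stood apart. Where a log2 fold change printed below turned or differed by over 1.5 times without Vec tumors 3 and 5, that value is given. Group means and levels given alone include those tumors. Adamts7 transcripts ranged between 74.8 and 96.0 TPM in Adamts7 tumors 1 to 4 but were at 18.2 TPM in the tumor labelled Adamts7 5, against 6.49 to 28.3 TPM in the Vec tumors. The tumor labelled Adamts7 5 thus lay below Vec tumors 3 and 5 in the gene that defines its group. The 10 melanocyte markers together reached between 12828 and 23377 TPM in the Adamts7 tumors, against 8511 to 16912 TPM in Vec tumors 1, 2 and 4, 313 TPM in Vec tumor 3 and 1947 TPM in Vec tumor 5. All 10 markers had their 2 lowest values in Vec tumors 3 and 5, where the melanosome gene Pmel was at 6.13 and 274 TPM, Mlana at 3.08 and 53.2 TPM, and Gpr143 was listed at 0 in Vec tumor 3. The 10 T cell markers summed to 21.2 to 51.2 TPM in the Adamts7 tumors, against 50.1 to 70.0 TPM in Vec tumors 1, 2 and 4, 443 TPM in Vec tumor 3 and 330.4 TPM in Vec tumor 5. Cd3e, a T cell receptor subunit, was at 1.44 to 5.10 TPM in the Adamts7 tumors, against 6.33 to 40.4 TPM in the Vec tumors. Macrophage markers summed to 572 to 2400 TPM in the Adamts7 tumors, against 1040 to 1554 TPM in Vec tumors 1, 2 and 4, 6200 TPM in Vec tumor 3 and 6539 TPM in Vec tumor 5. Of these last sums, Lyz2 alone made up 3010 and 3677 TPM. Vec tumors 3 and 5 were the 2 highest in 7 of the 10 macrophage markers. Cd68 went the other way, at 162 and 158 TPM there, against 218 to 411 TPM in the other Vec tumors. Fibroblast markers summed to 403 to 1989 TPM in the Adamts7 tumors, against 508 to 1692 TPM in the Vec tumors. Endothelial markers summed to 75.8 to 171 TPM in the Adamts7 tumors, against 119 to 202 TPM in the Vec tumors. Both sums were lowest in the tumor labelled Adamts7 5, so stroma also varied within the Adamts7 group. Keratinocyte markers stayed at or under 0.72 TPM in sum in the Adamts7 tumors and at or under 4.99 TPM in the Vec tumors. Adipocyte and muscle markers reached 553 TPM in Vec tumor 4.

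The 10 genes covered a wide span of abundance per transcript length. By median over the 10 tumors the order was Phlda1 at 570.4 TPM, Ccnd1 at 484 TPM, Dusp6 at 198 TPM, Etv5 at 159.5 TPM, Dusp4 at 96.6 TPM, Spry2 at 70.9 TPM, Etv4 at 62.7 TPM, Spred1 at 44.2 TPM, Spry4 at 38.6 TPM and Egr1 at 13.5 TPM. Neighbours in that order overlapped in their ranges over tumors, except that every tumor's Ccnd1 exceeded the highest Dusp6 level and every tumor's Spry4 exceeded the highest Egr1 level. The level of Etv5 was above that of Dusp4 in all 10 tumors although their ranges overlap. The most variable gene was Phlda1, with a 9.91-fold span between its lowest and highest tumor, and the least variable was Spred1, with a 1.42-fold span.

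**Figure D1:**
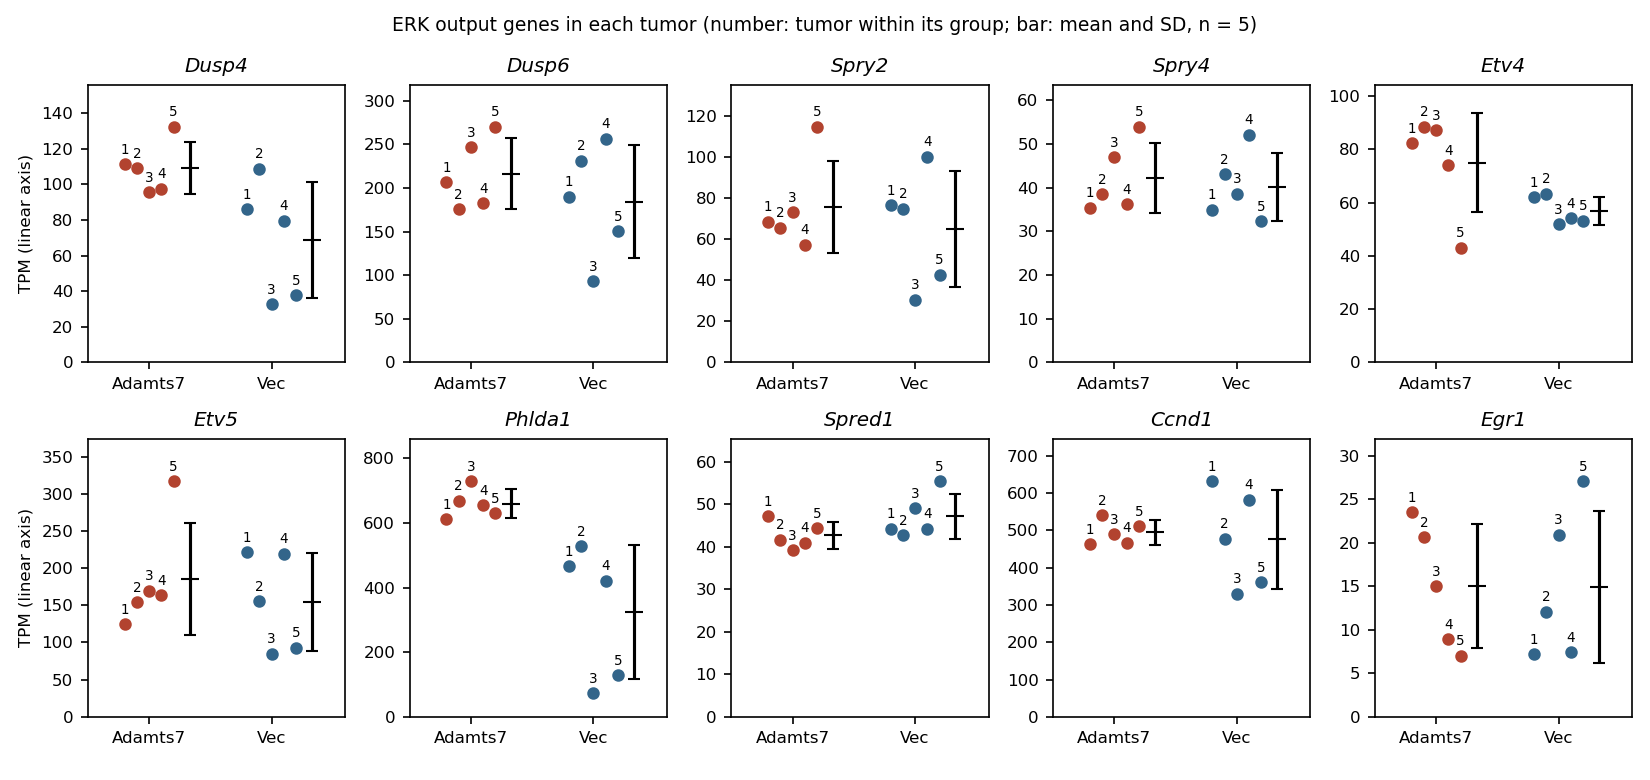
Level in TPM (linear axis starting at 0) of each ERK output gene in each tumor, with Adamts7 tumors left of Vec tumors, the tumor number printed beside each point, and bars for the mean and SD of 5 tumors. The lowest Vec points of Phlda1 and Dusp4 are tumors 3 and 5, at 73.6 and 129.6 TPM for Phlda1 and at 32.8 and 37.9 TPM for Dusp4.

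Between Adamts7 and Vec tumors, 0 of the 10 genes passed an adjusted p of 0.05, with limma 3.58.1 on log2(TPM + 1) and adjustment over all genes tested. Of all 15276 genes, 0.223% passed, 4 higher and 30 lower in Adamts7 tumors, a split that was 10 and 20 under median-of-ratios scaling and under quantile normalization. The overexpressed gene, Adamts7, did not pass either, with a log2 fold change of 2.21 (SE 0.54, limma adjusted p = 0.104). It passed without the tumor labelled Adamts7 5 (limma adjusted p = 0.0238) and in the authors' deposited table (adjusted p = 0.000817). Not passing the fit of all 10 tumors therefore does not show that a gene is unchanged. At an unadjusted p under 0.05 there were 2 of the 10, Phlda1 and Dusp4, against 20.2% of all genes, and both were on the higher side, as were 4.86% of all genes. The groups did not overlap for 1 of the 10, Phlda1, against 4.89% of all genes. The fitted difference was positive, that is higher in Adamts7 tumors, for 9 of the 10 against 39.8% of all genes, and its median was 0.30 on the log2 scale against -0.10 over all genes. Without Vec tumors 3 and 5 it was positive for 4 of the 10 against 35.7% of all genes, with a median of -0.04, and 0 of the 10 passed, against 0.222% of all genes. Leaving out the tumor labelled Adamts7 5 as well, 2 of the 10 passed, Phlda1 and Etv4, against 6.13% of all genes, 3 had groups that did not overlap, against 22.2%, and 4 were positive, against 39.2%. With tumor weights, which give outlying tumors less influence, 1 passed, Etv4, against 7.98% of all genes, and 4 were positive, against 38.6%. Differences below are log2 fold changes of TPM + 1, Adamts7 over Vec, which understate changes of low genes.

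**Figure D2:**
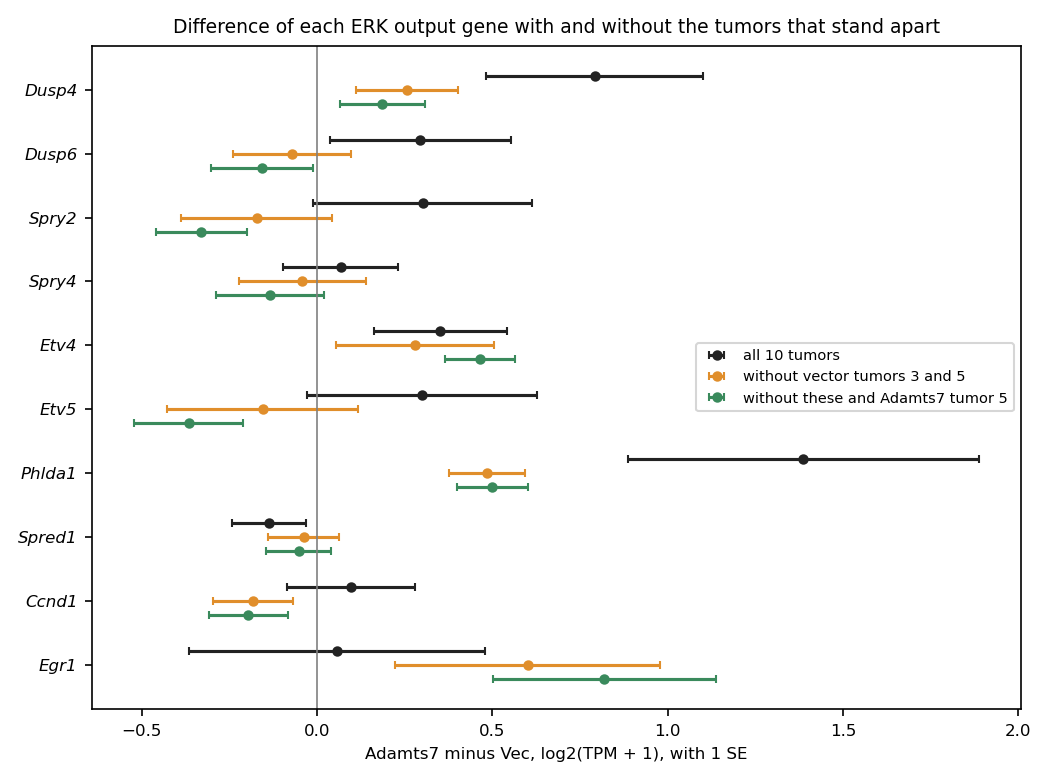
Log2 fold change of TPM + 1, Adamts7 over Vec, of each ERK output gene with all 10 tumors (black), without Vec tumors 3 and 5 (orange) and without these plus the tumor labelled Adamts7 5 (green), with bars of 1 standard error. With all tumors 9 of 10 values are above 0, and without Vec tumors 3 and 5 the values of Dusp6, Spry2, Spry4, Etv5 and Ccnd1 lie below 0.

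Phlda1 encodes a protein with a pleckstrin homology-like domain that ERK induces early, and it was the gene with the largest difference of the 10. Its level was 612, 669, 729, 655 and 631 TPM in Adamts7 tumors 1 to 5, against 466, 529, 73.6, 422 and 129.6 TPM in Vec tumors 1 to 5. Every Adamts7 tumor lay above every Vec tumor, and Vec tumors 3 and 5 lay far below the other Vec tumors. Phlda1 averaged 659 ± 44.8 TPM in Adamts7 tumors and 324 ± 207 TPM in Vec tumors (SD, n = 5 each), a ratio of 2.04. The log2 fold change of Phlda1 was 1.39 (SE 0.50, 95% interval 0.28 to 2.49), with a limma adjusted p of 0.181. An exact two-sided permutation test of Phlda1 alone gave p = 0.00794, the smallest that 5 against 5 tumors can give. Without Vec tumors 3 and 5 the log2 fold change of Phlda1 was 0.49 with a limma adjusted p of 0.119. With the tumor labelled Adamts7 5 left out too it was 0.50 and passed the threshold (limma adjusted p = 0.0316). The spread within the groups also differed in size, with an SD of log2(TPM + 1) of 0.10 in Adamts7 tumors and 1.27 in Vec tumors. Low Phlda1 in Vec tumors 3 and 5 went with low melanocyte markers, high T cell markers and a high sum of macrophage markers there. Their part in the result was not tested.

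Dusp4 and Dusp6 encode dual-specificity phosphatases that remove the activating phosphates from ERK, Dusp4 in the nucleus and Dusp6 in the cytoplasm. Dusp4 was at 111, 109, 95.7, 97.6 and 132 TPM in Adamts7 tumors, against 85.9, 109, 32.8, 79.5 and 37.9 TPM in Vec tumors. The groups overlapped only through Vec tumor 2, which lay within the Adamts7 range, and Vec tumors 3 and 5 were the 2 lowest. Dusp4 averaged 109 ± 14.6 TPM in Adamts7 tumors and 68.9 ± 32.6 TPM in Vec tumors (SD, n = 5 each). Its log2 fold change was 0.79 (SE 0.31, 95% interval 0.11 to 1.48), with a limma adjusted p of 0.203, and an exact two-sided permutation test of Dusp4 alone gave p = 0.0317. The permutation p-values were not adjusted for the number of genes. Apart from Phlda1 and Dusp4, the same permutation test gave p-values between 0.127 (Etv4) and 0.889 (Egr1) for the genes of the set. Without Vec tumors 3 and 5 the log2 fold change of Dusp4 was 0.26, with a limma adjusted p of 0.513. Dusp6, the more abundant of the pair in every tumor, was at 207, 176, 247, 183 and 270.0 TPM in Adamts7 tumors, against 189.8, 231, 93.2, 257 and 151 TPM in Vec tumors. The tumor labelled Adamts7 5 held the highest Dusp6 level and Vec tumors 3 and 5 the 2 lowest, while the other 7 tumors mixed. Dusp6 averaged 216 ± 40.8 TPM in Adamts7 tumors and 184 ± 65.1 TPM in Vec tumors (SD, n = 5 each). Its log2 fold change of 0.29 (SE 0.26, 95% interval -0.27 to 0.86) did not pass (limma adjusted p = 0.512) and was -0.071 without Vec tumors 3 and 5. The ratio of Dusp6 to Dusp4 was between 1.61 and 2.58 in the Adamts7 tumors, against 2.13 to 3.97 in the Vec tumors.

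Spry2, Spry4 and Spred1 encode related inhibitors that act between the receptor and RAF. Spry2 was at 68.7, 65.7, 73.1, 57.4 and 115 TPM in Adamts7 tumors, against 76.5, 75.0, 30.5, 100.3 and 42.7 TPM in Vec tumors. As for Dusp6, the highest tumor was the one labelled Adamts7 5 and the 2 lowest were Vec tumors 3 and 5. Spry2 averaged 75.9 ± 22.5 TPM in Adamts7 tumors and 65.0 ± 28.1 TPM in Vec tumors (SD, n = 5 each), a log2 fold change of 0.30 (SE 0.31, limma adjusted p = 0.583). It was -0.17 without Vec tumors 3 and 5 and -0.33 when the tumor labelled Adamts7 5 was also left out, where the 4 Adamts7 tumors left all lay below the 3 Vec tumors left (limma adjusted p = 0.171). Spry4 was at 35.4, 38.5, 47.0, 36.2 and 53.9 TPM in Adamts7 tumors, against 35.0, 43.1, 38.7, 52.2 and 32.3 TPM in Vec tumors. The ranges of Spry4 were nearly the same in both groups, and its mean was 42.2 ± 8.01 TPM in Adamts7 tumors and 40.2 ± 7.81 TPM in Vec tumors (SD, n = 5 each). The log2 fold change of Spry4 was 0.07 (SE 0.16, 95% interval -0.29 to 0.43, limma adjusted p = 0.830), and -0.041 without Vec tumors 3 and 5. Spred1 was at 47.2, 41.7, 39.1, 40.9 and 44.3 TPM in Adamts7 tumors, against 44.2, 42.7, 49.0, 44.3 and 55.4 TPM in Vec tumors. It was the only one of the 10 genes whose 2 highest values were in Vec tumors 3 and 5. Spred1 averaged 42.6 ± 3.17 TPM in Adamts7 tumors and 47.1 ± 5.19 TPM in Vec tumors (SD, n = 5 each), a log2 fold change of -0.14 (SE 0.11, limma adjusted p = 0.461), and -0.038 without Vec tumors 3 and 5.

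Etv4 and Etv5 are ETS transcription factors of the PEA3 family, whose transcripts report signalling through ERK in many tissues. Etv4 was at 82.3, 88.4, 87.1, 74.0 and 43.1 TPM in Adamts7 tumors, against 62.1, 63.3, 51.9, 54.1 and 53.2 TPM in Vec tumors. Adamts7 tumors 1 to 4 lay above all Vec tumors, and the tumor labelled Adamts7 5 lay below all of them. Etv4 averaged 75.0 ± 18.7 TPM in Adamts7 tumors and 56.9 ± 5.35 TPM in Vec tumors (SD, n = 5 each), a log2 fold change of 0.35 (SE 0.19, limma adjusted p = 0.307). Without the tumor labelled Adamts7 5, Etv4 rose by 0.54 (SE 0.10) on the log2 scale and passed the threshold (limma adjusted p = 0.0271), as did 4.29% of all genes. Without Vec tumors 3 and 5 instead, its log2 fold change was 0.28, with a limma adjusted p of 0.658. Etv5 was at 125, 155, 169.8, 164 and 317 TPM in Adamts7 tumors, against 221, 155, 85.0, 219.6 and 92.9 TPM in Vec tumors. The tumor labelled Adamts7 5 was the highest, Vec tumors 1 and 4 came next, and Vec tumors 3 and 5 were the 2 lowest. Etv5 averaged 186 ± 75.2 TPM in Adamts7 tumors and 155 ± 65.8 TPM in Vec tumors (SD, n = 5 each), a log2 fold change of 0.30 (SE 0.33, limma adjusted p = 0.605). It was -0.15 without Vec tumors 3 and 5 and -0.37 when the tumor labelled Adamts7 5 was also left out. The ratio of Etv5 to Etv4 was 1.51, 1.75, 1.95, 2.21 and 7.34 in Adamts7 tumors, against 3.57, 2.45, 1.64, 4.06 and 1.75 in Vec tumors. The tumor labelled Adamts7 5 stood apart from all others in this ratio, with the highest Etv5 and the lowest Etv4 of the series.

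Ccnd1 encodes cyclin D1, which activates CDK4 and CDK6 in G1 phase, and Egr1 is an immediate early gene that responds to ERK within minutes. Ccnd1 was at 463, 542, 490.1, 466 and 512 TPM in Adamts7 tumors, against 632, 478, 329.9, 583 and 360.3 TPM in Vec tumors. The 5 Adamts7 tumors lay close together and inside the range of the Vec tumors, in which tumors 1 and 4 were the 2 highest and tumors 3 and 5 the 2 lowest of the series. Ccnd1 averaged 495 ± 32.7 TPM in Adamts7 tumors and 477 ± 133 TPM in Vec tumors (SD, n = 5 each). Its log2 fold change was 0.10 (SE 0.18, 95% interval -0.30 to 0.50, limma adjusted p = 0.771), and -0.18 without Vec tumors 3 and 5. Egr1 was at 23.5, 20.7, 15.0, 8.92 and 7.02 TPM in Adamts7 tumors, against 7.18, 12.1, 20.9, 7.44 and 27.1 TPM in Vec tumors. Here Vec tumors 3 and 5 were the highest Vec tumors, opposite to the phosphatases, and the tumor labelled Adamts7 5 was the lowest of all 10. Egr1 averaged 15.0 ± 7.17 TPM in Adamts7 tumors and 14.9 ± 8.78 TPM in Vec tumors (SD, n = 5 each), a log2 fold change of 0.06 (SE 0.42, 95% interval -0.87 to 0.99, limma adjusted p = 0.949). Without Vec tumors 3 and 5 the log2 fold change of Egr1 was 0.60, with a limma adjusted p of 0.556.

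Across tumors, several of the genes shared their highest and their lowest tumors. Vec tumors 3 and 5 were the 2 lowest tumors in 6 of the 10 genes, Dusp4, Dusp6, Spry2, Etv5, Phlda1 and Ccnd1, against 19.0% of all genes. They were the 2 highest in 1, Spred1, against 24.1% of all genes. The tumor labelled Adamts7 5 was the highest in 5 genes, Dusp4, Dusp6, Spry2, Spry4 and Etv5, against 12.9% of all genes, and the lowest in Etv4 and Egr1, against 20.0% of all genes. The summed level of the 10 genes was 1775 to 2126 TPM in the Adamts7 tumors, against 1820, 1739, 806, 1818 and 982 TPM in Vec tumors 1 to 5. Vec tumors 1, 2 and 4 thus fell near or within the Adamts7 range in this sum, and Vec tumors 3 and 5 lay far under it. Phlda1 and Ccnd1, the most abundant of the 10, dominate the sum. With each gene standardised to its own mean and SD, the average of the 10 genes was 0.26, 0.26, 0.34, -0.13 and 0.49 in Adamts7 tumors, against 0.06, 0.14, -1.12, 0.33 and -0.63 in Vec tumors. Again Vec tumors 3 and 5 were the lowest, and the other 8 tumors mixed. These are also the tumors with the lowest melanocyte markers and the highest T cell markers, whose part in the pattern was not tested.

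**Figure D3:**
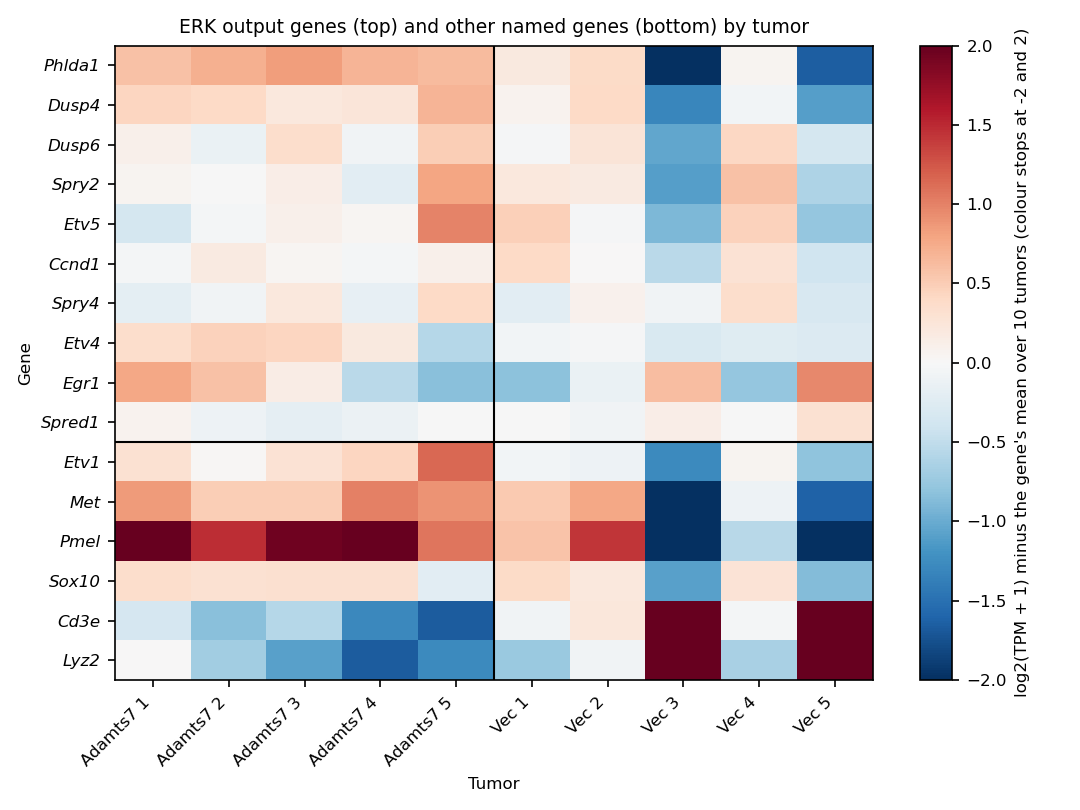
Colour gives log2(TPM + 1) minus the gene's mean over the 10 tumors, with Adamts7 tumors left of Vec tumors, the ERK output genes in the upper 10 rows, and below the line Etv1, Met, the melanocyte markers Pmel and Sox10, the T cell marker Cd3e and the macrophage marker Lyz2. Vec tumors 3 and 5 are the 2 lowest in 6 of the upper 10 rows and in Pmel and Sox10, and the 2 highest in Cd3e and Lyz2.

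The rest of the pathway was examined through 6 lists, and 0 genes of any list passed the adjusted threshold, the same limma fit in which 0.223% of all genes passed. Among other ERK phosphatases and feedback inhibitors, 12 of 14 were tested, since Spry3 was not listed under that symbol and Dusp9 was below the filter. Of these 12, 4 were on the higher and 8 on the lower side, with a median log2 fold change of -0.37, and -0.22 without Vec tumors 3 and 5. At an unadjusted limma p under 0.05, 5 of the 12 were lower and 0 higher, against 15.3% and 4.86% of all genes. The 5 were Dusp7, Pea15a, Spred3, Spry1 and Rasa1. The list is broader than phosphatases of ERK and inhibitors induced by ERK, so this count does not describe feedback genes as a class. Dusp7, a further cytoplasmic ERK phosphatase, was at 36.5, 33.7, 34.4, 29.8 and 22.8 TPM in Adamts7 tumors, against 43.1, 37.8, 51.0, 52.5 and 50.8 TPM in Vec tumors. These groups did not overlap, as for 4.89% of all genes, but they did under median-of-ratios scaling. The log2 fold change of Dusp7 was -0.57 (SE 0.15, limma adjusted p = 0.112). Pea15a, which anchors ERK in the cytoplasm, averaged 114 ± 20.9 TPM in Adamts7 tumors and 168 ± 42.8 TPM in Vec tumors (SD, n = 5 each). The log2 fold change of Pea15a was -0.54, and -0.31 without Vec tumors 3 and 5. Spred3, a relative of Spred1, averaged 13.0 ± 2.75 TPM in Adamts7 tumors and 19.4 ± 4.61 TPM in Vec tumors (SD, n = 5 each). Thus Dusp7 and Dusp4, both ERK phosphatases, had differences of opposite sign, and neither passed.

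Of the other ERK target genes, 19 of 21 were tested, 9 on the higher and 10 on the lower side, with a median of -0.05, and 0.21 without Vec tumors 3 and 5. Etv1, the remaining PEA3 factor, was at 45.1, 37.1, 44.5, 49.3 and 82.3 TPM in Adamts7 tumors, against 34.9, 34.0, 14.4, 38.0 and 20.5 TPM in Vec tumors. It shared with Etv5 its highest tumor, the one labelled Adamts7 5, and its 2 lowest, Vec tumors 3 and 5. Etv1 had a log2 fold change of 0.87 (SE 0.29, limma adjusted p = 0.159), which was 0.47 without Vec tumors 3 and 5 and 0.29 when the tumor labelled Adamts7 5 was also left out. Elk3, an ETS factor phosphorylated by ERK, averaged 91.8 ± 6.49 TPM in Adamts7 tumors and 77.3 ± 3.85 TPM in Vec tumors (SD, n = 5 each), without overlap, and its log2 fold change was 0.24 (limma adjusted p = 0.186). Mcl1, a BCL2 family survival protein, averaged 118 ± 15.1 TPM in Adamts7 tumors and 149 ± 20.7 TPM in Vec tumors (SD, n = 5 each), and its groups overlapped. The log2 fold change of Mcl1 was -0.33, and -0.19 without Vec tumors 3 and 5.

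Among receptor tyrosine kinases, 14 of 19 were tested, 7 on each side, with a median of -0.04, and 0.09 without Vec tumors 3 and 5. Met, the HGF receptor, was at 195, 152, 152, 217 and 202 TPM in Adamts7 tumors, against 156, 185, 10.2, 100.5 and 34.4 TPM in Vec tumors. Vec tumors 3 and 5 again held the 2 lowest values. Met had a log2 fold change of 1.49 (SE 0.67, limma adjusted p = 0.244), and 0.35 without those tumors. Erbb2 averaged 12.4 ± 3.58 TPM in Adamts7 tumors and 16.6 ± 1.99 TPM in Vec tumors, and Kdr, the VEGF receptor of endothelial cells, 8.83 ± 1.98 TPM in Adamts7 tumors and 11.7 ± 3.18 TPM in Vec tumors (SD, n = 5 each). Of the receptor ligands, 15 of 19 were tested, 4 on the higher and 11 on the lower side, with a median of -0.36, and -0.02 without Vec tumors 3 and 5. Pdgfa was at 65.6 to 132 TPM in Adamts7 tumors, against 336 and 339 TPM in Vec tumors 3 and 5 and 108 to 168 TPM in the other Vec tumors, with a log2 fold change of -0.96 (SE 0.38, limma adjusted p = 0.203), and -0.40 without Vec tumors 3 and 5. Pdgfb averaged 17.1 ± 8.17 TPM in Adamts7 tumors and 53.5 ± 52.3 TPM in Vec tumors, and Fgf2 3.23 ± 1.04 TPM in Adamts7 tumors and 6.67 ± 4.78 TPM in Vec tumors (SD, n = 5 each). Both ligands had their 2 highest values in Vec tumors 3 and 5. Without those tumors the log2 fold change went from -1.10 to -0.016 for Pdgfb and from -0.67 to -0.037 for Fgf2.

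Of the cascade core, all 25 genes were tested, 11 on the higher and 14 on the lower side, with a median of -0.02, and -0.08 without Vec tumors 3 and 5. Mapk3, which encodes ERK1, was at 409, 438, 415, 425 and 476 TPM in Adamts7 tumors, against 399, 323, 197, 336 and 178 TPM in Vec tumors. Every Adamts7 tumor lay above every Vec tumor, and the log2 fold change of Mapk3 was 0.66 (SE 0.21, limma adjusted p = 0.154), and 0.30 without Vec tumors 3 and 5. Under median-of-ratios scaling the groups of Mapk3 overlapped. Map2k2, which encodes MEK2, averaged 165 ± 34.2 TPM in Adamts7 tumors and 116 ± 27.3 TPM in Vec tumors (SD, n = 5 each), with a log2 fold change of 0.51 (limma adjusted p = 0.207), and 0.29 without Vec tumors 3 and 5. Ksr1, a scaffold that holds RAF, MEK and ERK together, was at 5.23, 4.93, 4.02, 3.22 and 3.61 TPM in Adamts7 tumors, against 6.94, 6.85, 9.63, 10.4 and 8.65 TPM in Vec tumors. For Ksr1 every Adamts7 tumor lay below every Vec tumor, with a log2 fold change of -0.87 (SE 0.17, limma adjusted p = 0.0691). Without the tumor labelled Adamts7 5, Ksr1 fell by 0.83 on the log2 scale and passed the threshold (limma adjusted p = 0.0383), as did 4.29% of all genes. Ksr1 also passed with tumor weights (limma adjusted p = 0.0181). It did not pass without Vec tumors 3 and 5 (limma adjusted p = 0.165) or with tumors grouped by number (limma adjusted p = 0.162).

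**Figure D4:**
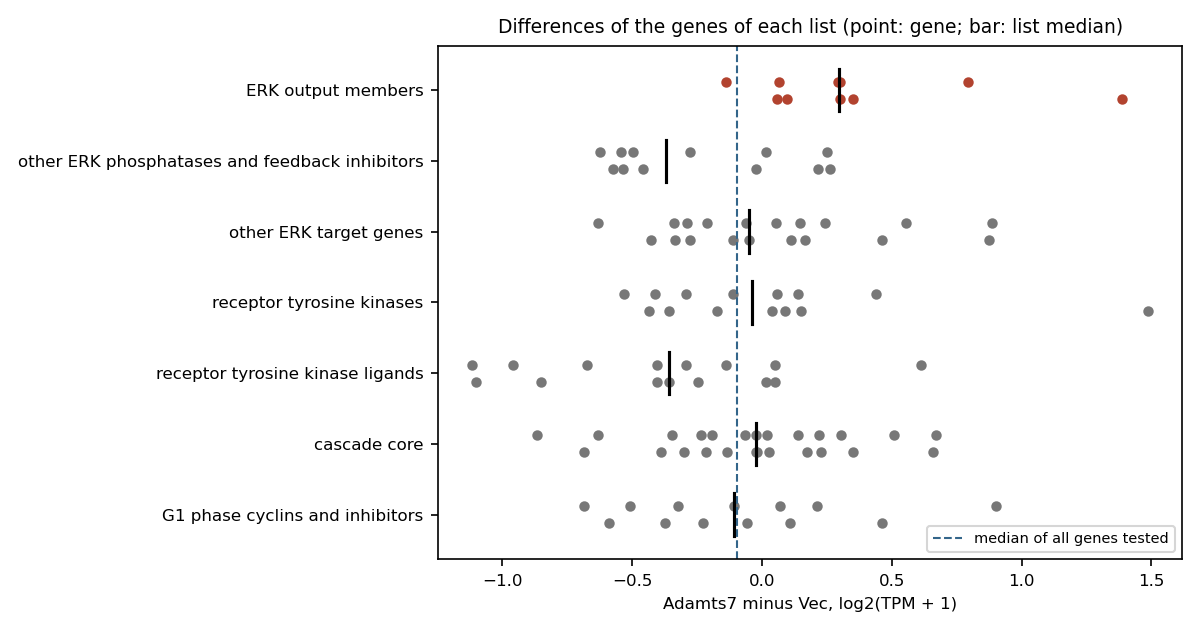
Log2 fold change of TPM + 1, Adamts7 over Vec, of each tested gene of the ERK output genes and of the other pathway lists, 1 point a gene, with a bar at each list's median and a dashed line at the median of all genes tested, -0.10. The median is 0.30 for the ERK output genes and lies between -0.37 and -0.02 for the other lists, and 0 genes passed the adjusted threshold.

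Since the day of harvest is not tied to tumors, the differences were also taken for every choice of 3 Adamts7 and 3 Vec tumors that could have been the day 45 harvest, 100 sets in all. These sets share tumors and only 1 can be the real harvest, so the counts of sets show a range and are not independent support. The log2 fold change was above 0 in all 100 sets for Phlda1 (0.43 to 2.10), Dusp4 (0.15 to 1.32) and Etv4 (0.10 to 0.68). For Phlda1 no other outcome was possible, since its groups do not overlap. It was above 0 in 89 sets for Dusp6, 85 for Spry2, 84 for Etv5, 75 for Ccnd1, 70 for Spry4, 58 for Egr1 and 2 for Spred1. Day and group cannot be told apart for the tumors of day 35 and day 50.

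In the authors' deposited table, 0 of the 10 genes had an adjusted p under 0.05, against 7.96% of the 18796 genes with an adjusted p there. The log2 fold change in the authors' deposited table was 1.14 for Phlda1 (adjusted p = 0.113), 0.51 for Etv4 (adjusted p = 0.0998) and 0.78 for Dusp4 (adjusted p = 0.137), each positive where Adamts7 tumors were higher. The sign in the authors' deposited table was that of the limma fit for all 10 genes, with 9 positive and Spred1 negative.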

How the data were processed

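RNA of 10 tumors was sequenced after poly(A) selection, 1 library a tumor, and groups were taken from the titles. The authors deposited log2(TPM + 1) per gene, and the submitters' processing notes name RSEM and the build mm39. TPM sums per tumor were 995286 to 998019 and keep no depth, so no counting interval is given. The authors' deposited comparison table holds the log2 fold change, a test score, p-values and a mean normalized signal, with DESeq2 named in the submitters' processing notes. Its identifiers were paired with symbols for 28805 of 30040.

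Genes averaging 1 TPM or more were tested with limma 3.58.1 (R 4.3.3, trended prior variance) on log2(TPM + 1), pseudocount 1 TPM, group as the only term, Benjamini-Hochberg adjustment over all genes at 0.05. Single genes also had an exact two-sided permutation test over 252 arrangements. Tumors are not stated to be separate cultures, so p-values measure the spread between these tumors. No 2 tumors had identical values. The test was checked on simulated data, where it recovered 54.3% of log2 changes of 1, 81.6% of changes of 2 and 93.9% of changes of 3. Smaller changes were not simulated. Deviations from the group means had correlations of -0.28 to 0.26 between same-numbered tumors. Tumors of different numbers were not compared, so this cannot tell whether a number marks a pair. Numbers were not taken as pairs in the main fit. Members and lists were chosen with earlier results of these data known. All members were named, then of each list the 3 genes with the smallest p, Adamts7, markers Pmel, Mlana and Cd3e, and genes most like the members. The values of 1 cascade gene are not reported here. Alternatives were a replicate block, tumor weights, each tumor left out, and other scalings, pseudocounts, filters and prior variances. Leaving out Vec tumors 3 and 5, alone or with the tumor labelled Adamts7 5, was chosen after seeing the data. Promoter windows came from the RefSeq table of build GRCm38.p6, which is not the build of the expression files, so no other coordinates are printed.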

Additional observations from a re-analysis of the deposited data

Results flagged for a closer look

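Etv4 in the tumor labelled Adamts7 5, at 43.1 TPM, lay far from the other 4 Adamts7 tumors, which were at 74.0 to 88.4 TPM. On the log2(TPM + 1) scale its gap to the nearest Adamts7 tumor was 0.75 of the range of the group. This is above the critical value of 0.71 for 5 samples, which the gap in TPM itself does not reach. It was the only such case among 20 groups of values, the 10 genes in each of the 2 groups of tumors, and chance alone gives about 1 in 20. In this tumor Adamts7 itself was at 18.2 TPM, against 74.8 to 96.0 TPM in the other Adamts7 tumors, and Etv5 was at its highest. What these values share was not tested.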

How the results depend on the processing

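Under other pseudocounts, filters, scalings and a constant prior variance, 0 of the 10 genes passed and all kept their direction. Scaling moved the median of all genes to -0.01 (median-of-ratios) and 0.04 (quantile), against -0.10. Of the 10 genes, 1 was called higher with tumor weights (Etv4), 0 to 1 with each tumor left out (Etv4 without the tumor labelled Adamts7 5) and 2 without Vec tumors 3 and 5 and the tumor labelled Adamts7 5 (Phlda1 and Etv4), where 3 had groups that did not overlap, against 1 to 2 with each tumor left out. Positive differences numbered 4 in each of 3 settings, which were tumor weights, without Vec tumors 3 and 5, and without all 3 tumors. With tumor weights the log2 fold change was -0.011 for Dusp6, -0.18 for Spry2, -0.061 for Spry4, -0.18 for Etv5 and -0.13 for Ccnd1. Without Vec tumors 3 and 5 it was -0.071 for Dusp6, -0.17 for Spry2, -0.041 for Spry4, -0.15 for Etv5 and -0.18 for Ccnd1. Without all 3 tumors it was -0.16 for Dusp6, -0.33 for Spry2, -0.13 for Spry4, -0.37 for Etv5 and -0.20 for Ccnd1. With each tumor left out it ran between -0.024 and 0.16 for Spry4, -0.023 and 0.21 for Ccnd1 and -0.14 and 0.31 for Egr1. Called genes of the lists numbered 2 phosphatases and feedback inhibitors (Dusp7 and Spry1), 1 ERK target (Egr3) and 4 cascade genes (Ksr1, Map2k2 and Nras among them) with tumor weights, and 2 ERK targets (Egr3 and Maff) and 2 cascade genes (Map2k2 among them) without all 3 tumors. With each tumor left out the called genes numbered 0 to 1 for these lists, the ligands and the G1 genes. Over all genes the calls numbered 34, but 657 without the tumor labelled Adamts7 5, 914 without all 3 tumors and 1219 with tumor weights. With tumors grouped by number as a replicate block, Phlda1 had a log2 fold change of 1.39 (limma adjusted p = 0.206), and 0 of the 10 genes and 0 of all genes were called. The cause of these changes was not tested. TPM gives no depth limit per tumor for genes low in TPM such as Egr1. The mean normalized signal of Egr1 over the tumors was 536 in the authors' deposited table.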

Other observations

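Genes of the G1 phase beside Ccnd1 were measured as well. All 13 were tested, 5 on the higher side, against 39.8% of all genes, and 8 on the lower side, with a median log2 fold change of -0.11. With limma 0 passed, against 0.223% of all genes, and 2 had an unadjusted p under 0.05, both higher, against 20.2% of all genes in either direction and 4.86% higher. Cdk4, the kinase partner of cyclin D1, was at 494, 454, 431, 413 and 378 TPM in Adamts7 tumors, against 375, 389, 244, 354 and 240.6 TPM in Vec tumors. Only Vec tumor 2 reached into the Adamts7 range, and Vec tumors 3 and 5 were the 2 lowest. Cdk4 had a log2 fold change of 0.46 (SE 0.16, limma adjusted p = 0.176), and 0.22 without Vec tumors 3 and 5. Cdk2, the partner of cyclin E, averaged 228 ± 44.2 TPM in Adamts7 tumors and 142 ± 87.0 TPM in Vec tumors, and Ccne2, a cyclin E, averaged 12.2 ± 3.97 TPM in Adamts7 tumors and 19.2 ± 8.06 TPM in Vec tumors (SD, n = 5 each). The log2 fold change of Cdk2 was 0.90 (SE 0.40, limma adjusted p = 0.242), and 0.24 without Vec tumors 3 and 5.

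The 5 genes outside the set most like its average over the 10 tumors were Aimp2, Plat, Sinhcaf, Mlip and Rbm15b, and the 3 most like Dusp6 were Alg5, Tmem82 and Ccnjl. They were ranked by Pearson likeness of log2(TPM + 1) over 10 tumors, a description in which all points share the library scaling. Over the 10 tumors the likeness was 0.94 to 0.97, and over the 8 tumors without Vec tumors 3 and 5 it was 0.56 to 0.89, lowest for Mlip. All 8 genes had their 2 lowest values in Vec tumors 3 and 5, which the choice by likeness to profiles low in those tumors favours. Plat, the tissue plasminogen activator, was at 90.0, 122, 119.5, 102 and 134 TPM in Adamts7 tumors, against 99.9, 104, 48.0, 114 and 53.0 TPM in Vec tumors. Mlip was at 67.2 to 141 TPM in Adamts7 tumors, against 15.8 and 24.9 TPM in Vec tumors 3 and 5 and 62.5 to 92.4 TPM in the other Vec tumors.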
